A study of Mus musculus with 2 samples.

Results

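Intermediate progenitor cells (IPCs) that carried Eomes transcripts but no transcripts of 3 cell cycle genes were described in the E16.5 mouse cerebral cortex. They were chosen by their own counts: a barcode with 1500 to 60000 unique molecular identifiers (UMIs, each 1 captured RNA molecule) and under 10% mitochondrial UMIs was a member if it held 2 or more UMIs of Eomes, none of Gad1, Gad2, Dlx1, Dlx2 or Trp73, and none of Mki67, Top2a or Cenpf. This gave 533 of 16213 kept cells, 226 of 5966 in library 1 and 307 of 10247 in library 2. The members thus made up 3.79% of the kept cells of library 1 (exact binomial 95% interval 3.32 to 4.30) and 2.996% of those of library 2 (2.67 to 3.34), or 3.39% ± 0.560 (SD, n = 2).

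The series holds 2 single-cell RNA-sequencing libraries of E16.5 cerebral cortex from wild-type (WT) control embryos of an Eomes-Cre line called EomesDot in the labels. Both libraries are of 1 genotype and neither was treated, so conditions could not be compared. The study's text speaks of single-cell data from the E16.5 dorsal telencephalon, and a supplementary legend of E16.5 cortices. The dissection in its methods is written for the dorsal telencephalon of an earlier embryonic day. The cells were dissociated with papain and captured with a droplet kit that reads the 3′ end of polyadenylated RNA. Whether a library holds 1 embryo or several, and of which sex, is not given by the labels. As the tests took out the difference between the libraries, p-values measure only how far differences between cell classes varied between these 2 samples. Library 1 held 46398156 UMIs over 9049 barcodes and library 2 held 64324236 UMIs over 13556 barcodes, of which 65.9% and 75.6% were kept. The kept cells of the libraries shared 21 barcode sequences, none of them among the members. Intervals of shares cover counting error only.

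IPCs arise from radial glial cells (RGCs) at the ventricular surface, leave that surface, settle in the subventricular zone and divide to give excitatory neurons of the cortex. Their hallmark is Eomes (also called Tbr2), a T-box transcription factor. It is switched on as the radial glial factors Pax6 and Sox2 are lowered, and it is lowered in turn as the daughter neurons switch on factors such as Neurod2, Neurod6 and Tbr1. The other markers used here were Neurog2, a basic helix-loop-helix (bHLH) factor that starts neurogenesis, Gadd45g, a stress- and differentiation-linked regulator of the cell cycle, Mfng, a sugar transferase that modifies Notch receptors, and Sstr2, a receptor for the peptide somatostatin.

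In RefSeq's annotation of GRCm38.p6, all 5 marker genes are protein-coding. Eomes lies at chr9:118478186-118486132, Neurog2 at chr3:127632733-127635636, Gadd45g at chr13:51846675-51848475, Mfng at chr15:78755882-78773516 and Sstr2 at chr11:113619327-113626028. Promoter sequences were at hand in RefSeq's table for 4 of the 5 genes, all but Mfng. They run from 250 bases before to 50 after the start that the table uses, which for Neurog2 lies inside the gene as given above, so that its window does not cover the outer gene start. They were searched on both strands for 3 forms of the E-box that bHLH factors recognise (CAGCTG or CATATG or CAGATG, the last also as its reverse complement CATCTG) and for the T-box half-site GGTGTGA. These letters are found in 16.3%, 3.91%, 17.2% and 3.98% of all 32851 promoters of that length. The 4 promoters held 1 match in all. It was a CAGCTG at chr13:51846620-51846625, 50 bases from the Gadd45g start, shown here in capitals because Gadd45g is the marker that differed most between the stages described further on. The promoter spans chr13:51846425-51846724 on the plus strand.
Gadd45g promoter: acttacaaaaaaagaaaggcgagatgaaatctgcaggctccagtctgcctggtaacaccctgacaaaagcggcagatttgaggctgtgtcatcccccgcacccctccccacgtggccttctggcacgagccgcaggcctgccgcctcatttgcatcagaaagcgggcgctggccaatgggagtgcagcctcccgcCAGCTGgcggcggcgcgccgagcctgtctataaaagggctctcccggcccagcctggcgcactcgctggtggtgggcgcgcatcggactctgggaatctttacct
A match of letters is a description of the sequence and not a measured site.

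Eomes itself chose the cells, so its level is given without a test. Members held a median of 5 Eomes UMIs in library 1 and 4 in library 2, with at most 30 and 19. In library 1, 20.8% of the members sat at the limit of 2 UMIs and 15.9% held 10 or more, while in library 2 these shares were 27.4% and 8.14%. Summed over the members, Eomes reached 712 and 639 CPM (UMIs of the gene per 1000000 UMIs of the summed cells). Members had a median of 8114 UMIs and 3058 genes in library 1, and of 7008 UMIs and 2754 genes in library 2, above the medians of 5706 and 4938 UMIs over all kept cells.

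**Figure D1:**
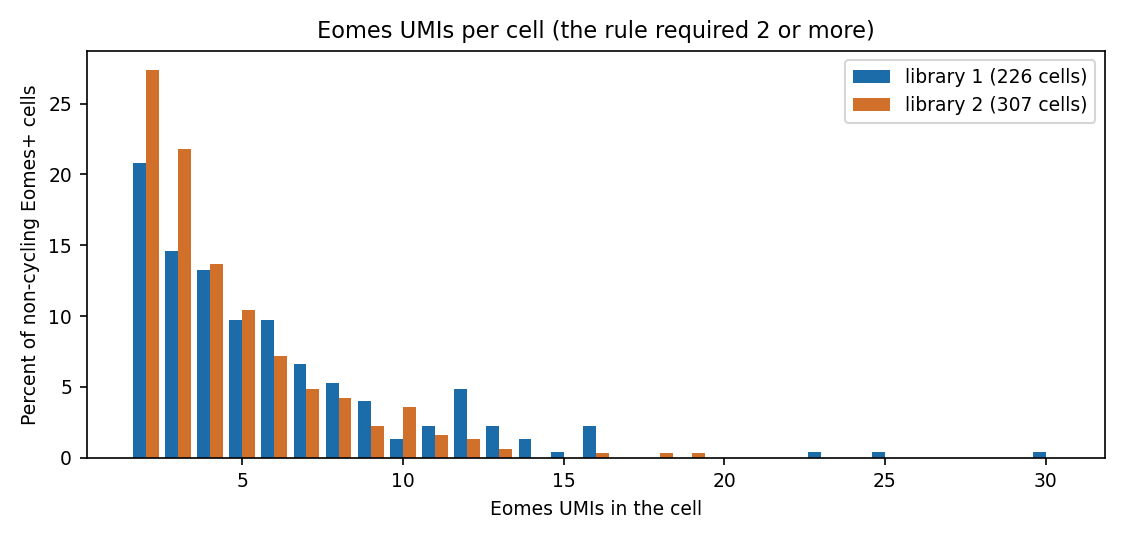
Percent of the non-cycling Eomes-positive cells of each library (y axis) by the number of Eomes UMIs in the cell (x axis), with library 1 in blue and library 2 in orange. The bars fall from the limit of 2 UMIs, which 20.8% and 27.4% of the cells held, to single cells with up to 30 and 19 UMIs.

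Cells that should lack Eomes gave the background of this gate. Of cells with 2 or more UMIs over Gad1 and Gad2, 1.88% and 1.18% also held 2 or more Eomes UMIs, at median depths of 4314 and 4536 UMIs. Of vascular and immune cells (2 or more UMIs over Cldn5, C1qa and C1qb, or 4 or more over Col1a1 and Col1a2, and none of Gad1 or Gad2), it was 0.893% and 2.42%, at median depths of 10080.5 and 7757.5 UMIs. Of 390 and 556 kept cells with 2 or more Eomes UMIs, 87 and 119 were left out for a UMI of the 5 interneuron or Cajal-Retzius genes of the rule, and 77 and 130 more for a UMI of the 3 cycle genes. The share of members is a share at this depth. With every cell thinned to 1500 UMIs before the rule was applied, 1.36% and 1.29% of the cells were members.

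The label of IPC was then checked on the markers that the rule did not use. At least 1 of Neurog2, Gadd45g, Mfng and Sstr2 was found in 93.8% and 91.2% of the members, and at least 2 in 73.9% and 71.3%. At least 1 was also found in 25.5% and 26.9% of the Gad1 or Gad2 cells above and in 42.4% and 40.1% of newborn neuron-type cells, a class defined further on. With all cells thinned to 1500 UMIs, at least 1 was found in 64.2% and 62.9% of members, 10.5% and 11.6% of the Gad cells and 11.3% and 15.1% of newborn neuron-type cells. A Neurog2 UMI was present in 67.7% and 66.5% of members, against 3.01% and 2.98% of the Gad cells. For Mfng the shares were 63.3% and 49.5% of members and 12.4% and 11.7% of the Gad cells. With all cells thinned to 1500 UMIs, Neurog2 was found in 42.5% and 38.1% of members against 1.19% and 1.29% of Gad cells. Cycling Eomes-positive cells, also defined further on, held at least 1 of the 4 in 97.9% and 97.4% and at least 2 in 91.5% and 88.3%. When thinned, 70.2% and 68.8% of them held at least 1. The markers thus did not go against the label in either library, but their presence did not set members apart from cycling Eomes-positive cells. None of the 4 was found in 14 and 27 members.

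Cells just inside and just outside the limits were set side by side, without a test. Members with exactly 2 Eomes UMIs held Neurog2 at 112 and 341 CPM and Gadd45g at 74.6 and 255 CPM. Non-cycling cells with 1 Eomes UMI and otherwise the same rule (90 and 166 cells) held Neurog2 at 69.4 and 110 CPM and Gadd45g at 41.05 and 103 CPM. Their genes of the excitatory neuron list summed to 13271 and 11159 CPM, against 10522 and 9449 CPM in members with 2 Eomes UMIs and 6826 and 7349 CPM in members with 5 or more. On the other limit, cells with exactly 1 UMI of the 3 cycle genes (30 and 53 cells) held Neurog2 at 571 and 453 CPM, beside the 463 and 451 CPM of the members.

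To show where the members differ from their neighbours in the lineage, UMI counts were summed per library and cell class and compared in edgeR by its quasi-likelihood test, blocking on library, with Benjamini-Hochberg adjustment over all genes tested. A gene was called at an adjusted p below 0.05. The first neighbour was the cycling Eomes-positive cell, with the same rule but 2 or more UMIs of the 3 cycle genes (47 and 77 cells). The second was the radial glia-type cell, with no Eomes or cycle UMI, no Olig1, Olig2, Neurod2 or Neurod6 UMI, 2 or more UMIs of Slc1a3 and at least 1 of Pax6 or Emx1 (30 and 59 cells). The third was the newborn neuron-type cell, with no Eomes or cycle UMI, 2 or more UMIs of Unc5d and 2 or more of Neurod2 and Neurod6 (1072 and 1579 cells). Genes that chose either class of a pair were not tested in that pair.

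The 4 markers that could be tested were higher in members than in both classes without Eomes. Neurog2 stood at 463 and 451 CPM in members, 289 and 353 in cycling Eomes-positive cells, 58.3 and 2.52 in radial glia-type cells and 14.8 and 16.7 in newborn neuron-type cells. Gadd45g followed the same order of class means, with 332 and 295 CPM in members, 213 and 242 in cycling, 62.5 and 37.8 in radial glia-type and 13.8 and 15.8 in newborn neuron-type cells. In neither gene did the members' libraries overlap those of another class.

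Mfng stood at 146 and 115 CPM in members, 84.4 and 104 in cycling, 0 and 0 in radial glia-type and 20.3 and 20.9 in newborn neuron-type cells. Sstr2 stood at 103 and 102 CPM in members, 73.0 and 80.2 in cycling, 4.17 and 0 in radial glia-type and 45.6 and 54.0 in newborn neuron-type cells. Against newborn neuron-type cells the 4 genes were higher in members by a log2 fold change of 4.82 ± 0.13 (SE) for Neurog2, 4.36 ± 0.11 for Gadd45g, 2.62 ± 0.13 for Mfng and 1.01 ± 0.12 for Sstr2 (edgeR, adjusted p 1.5e-22, 1.57e-23, 1.98e-16 and 1.7e-08). Sstr2 thus had the smallest of the 4 fold changes.

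**Figure D2:**
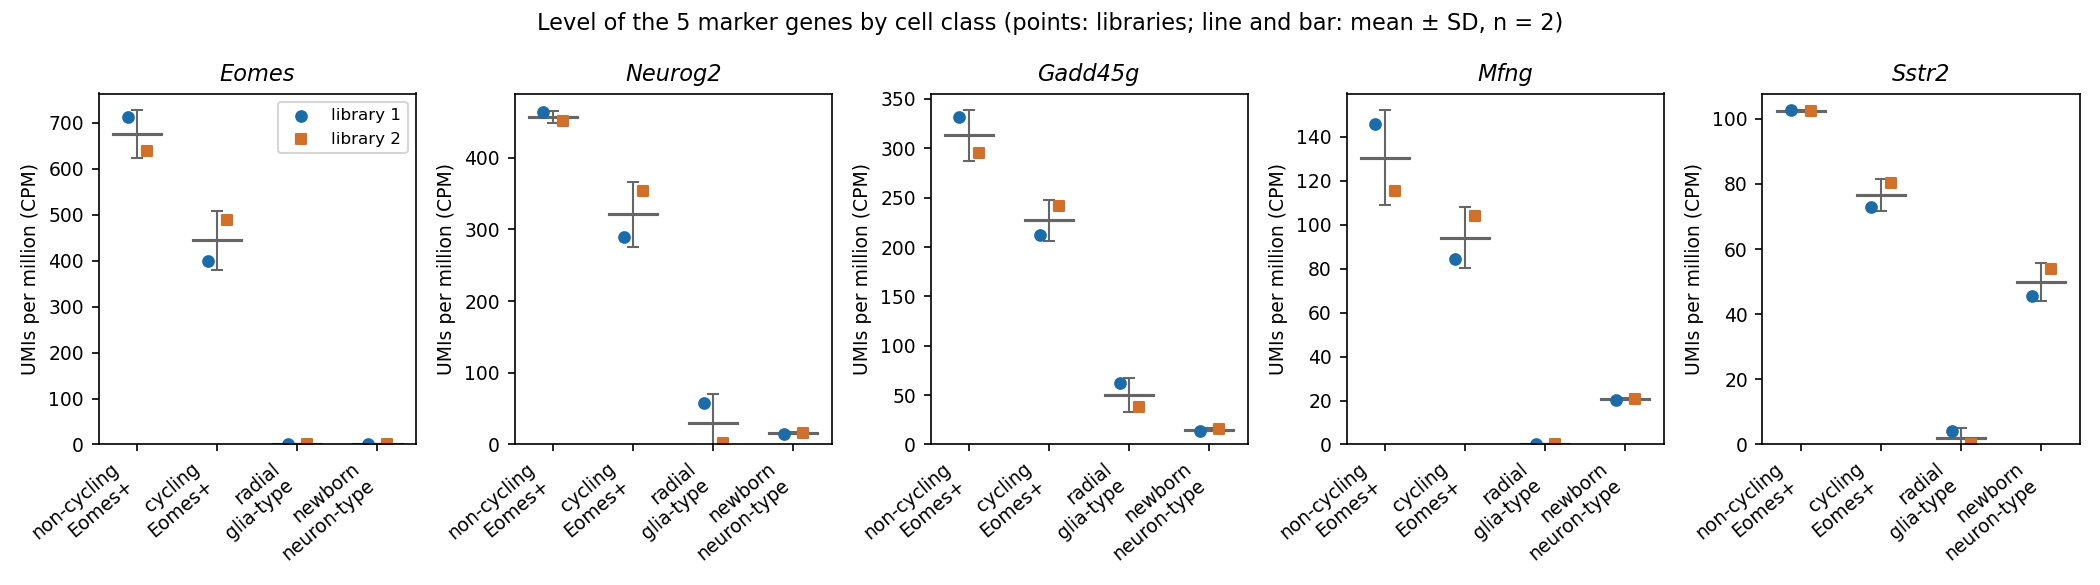
Level in CPM (y axes, each from 0) of the 5 marker genes in the 4 cell classes (x axis), with library 1 as blue circles, library 2 as orange squares, and the mean ± SD (n = 2) in grey. Eomes chose the classes; the other 4 genes were highest in the non-cycling Eomes-positive cells in both libraries, with Neurog2 at 463 and 451 CPM.

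Against cycling Eomes-positive cells, 2016 of 13571 genes tested were called (14.9%), 974 higher in the members (7.18%) and 1042 lower (7.68%). All tested genes of the S phase and the G2 and M phase lists were lower in members, while 14 of 24 excitatory neuron genes and 9 of 25 delamination and migration genes were higher. None of the delamination and migration list was lower (1 at an unadjusted p under 0.05, 0 with DESeq2, which called 6 higher), and 16 did not pass the test with edgeR. Because the classes were chosen on Mki67, Top2a and Cenpf, the fall of cycle genes is a description of what the rule did. Cycling cells also held more UMIs, with medians of 12407 and 9814. With DESeq2, 1187 genes were called, 327 higher and 860 lower. Without the highest Scrublet scores it was 1948, with 1049 higher and 899 lower. The split between directions thus depended on the method and on the cells kept. Red blood cell genes summed to 572 and 1690 CPM in members and 339 and 631 CPM in cycling cells (4 of 5 tested higher), and endothelial genes to 11.2 and 18.8 against 1.62 and 104 CPM (1 of 5 lower, although the sum was lower in members in library 2 only). Pericyte and fibroblast genes summed to 8.54 and 45.9 CPM in members and 4.87 and 11.3 CPM in cycling cells (1 of 5 higher). The part of these lists in the result was not tested.

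All 23 tested genes of the S phase list and all 20 of the G2 and M phase list were lower in members, with median log2 fold changes of -2.30 and -5.64 beside 0.12 over all genes. Rrm2, a subunit of the enzyme that makes DNA's building blocks, stood at 5.34 and 15.6 CPM in members and 393 and 293 CPM in cycling cells. The 8 largest falls were those of Depdc1b, Kif20a, Hist1h2af, Kif2c, Ndc80, Ska1, Depdc1a and Sgo2a. Most of these act in the mitotic spindle, at kinetochores or in cytokinesis, and Hist1h2af encodes a histone. Depdc1b, Kif20a and Hist1h2af had no UMI in any member, and were at least 75.4-fold, 65.9-fold and 34.4-fold lower, from a floor of 3 counts in the members' sum.

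Absence of the 3 cycle genes did not leave the members free of other cycle transcripts. With each cell thinned to 1500 UMIs, 16.4% and 17.6% of members held 2 or more UMIs of the S phase list, against 74.5% and 62.3% of cycling, 26.7% and 30.5% of radial glia-type and 11.3% and 13.8% of newborn neuron-type cells. For the G2 and M phase list it was 17.3% and 18.2% of members, 80.9% and 87.0% of cycling, 26.7% and 44.1% of radial glia-type and 3.64% and 7.98% of newborn neuron-type cells. Without thinning, 74.8% and 71.7% of members held 2 or more S phase UMIs. This was near the 71.7% and 64.2% of newborn neuron-type and the 72.3% and 70.3% of vascular and immune cells. Thinned, 14.3% and 20.3% of the vascular and immune cells held them, also near the members. At equal depth the share of members with G2 and M phase UMIs thus lay below those of cycling and radial glia-type cells and above that of newborn neuron-type cells in both libraries.

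Most of the remaining G2 and M phase UMIs were those of Hmgb2, a chromatin protein of proliferating cells. It stood at 322 and 399 CPM in members out of a list sum of 466 and 561 CPM, and at 120 and 154 CPM in newborn neuron-type cells (log2 fold change 1.37 ± 0.09, edgeR adjusted p 3.5e-14). Against those cells 11 of 23 S phase genes and 4 of 20 G2 and M phase genes were higher. None of either list was lower with edgeR, at an unadjusted p under 0.05 or with DESeq2, which called 5 and 3 of them higher. Among them, Mcm2, part of the DNA replication helicase, stood at 14.95 and 12.4 CPM against 3.65 and 3.48 CPM (log2 fold change 1.89 ± 0.32, edgeR adjusted p 1.32e-05). Hells, Ung and Mcm3 lost the call when members with a UMI of any of 6 further cycle genes (Cdk1, Ccna2, Birc5, Rrm2, Uhrf1 and Tyms) were left out, an alternative set after seeing the data.

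**Figure D3:**
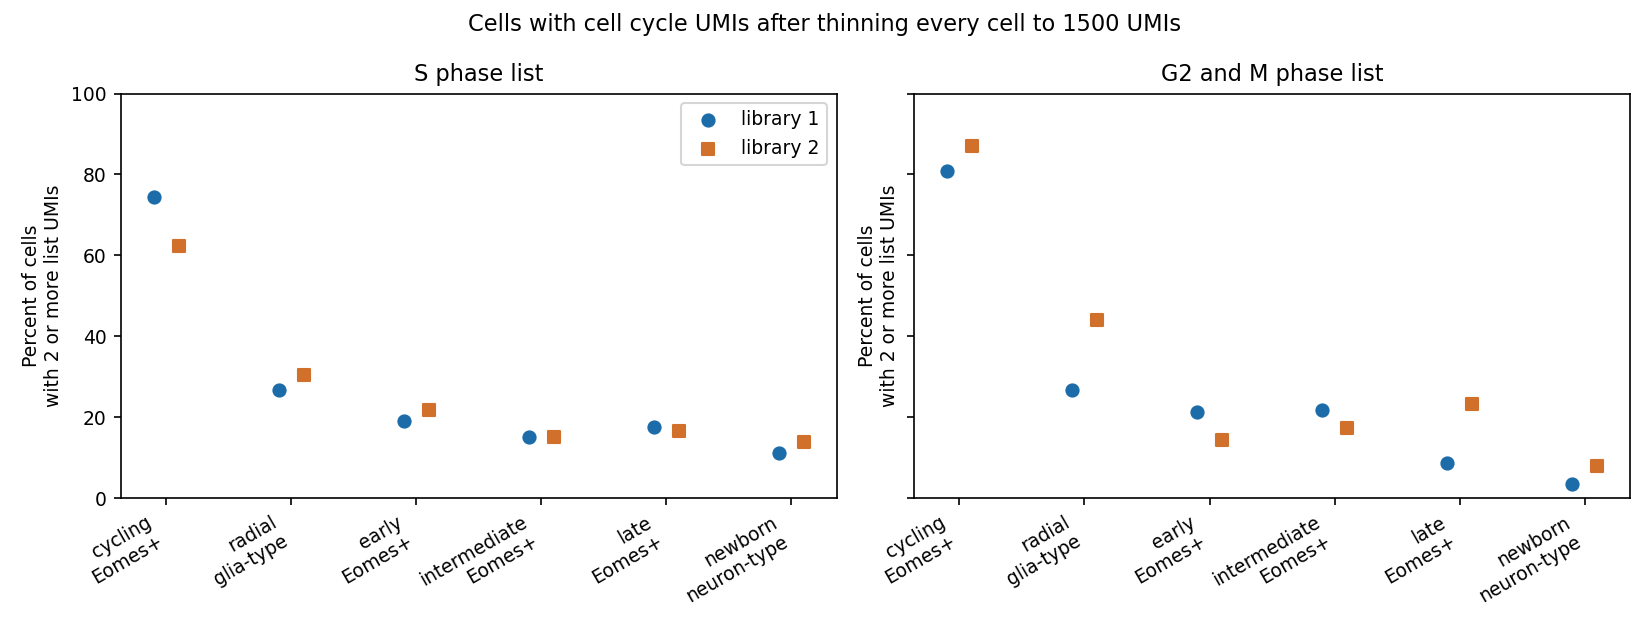
Percent of cells (y axis) with 2 or more UMIs of the S phase list (left) and of the G2 and M phase list (right) after thinning each cell to 1500 UMIs, by cell class (x axis), with library 1 as blue circles and library 2 as orange squares. The 3 stages of non-cycling Eomes-positive cells lie far below the cycling cells, which reach 74.5% and 62.3% for S phase.

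The genes that were higher in members than in cycling Eomes-positive cells were led by Ctsf, Nxph4, Tshz2, Unc5c, Tafa1, Lingo2, Mctp1 and Tafa2. Unc5c, a receptor for the guidance cue netrin, stood at 42.7 and 26.2 CPM in members and 1.62 and 8.77 CPM in cycling cells (log2 fold change 2.59 ± 0.47, edgeR adjusted p 0.000128). Nxph4, a secreted ligand of neurexins, stood at 24.0 and 23.4 CPM against 3.25 and 3.76 CPM (2.74 ± 0.53, adjusted p 0.000307). Ctsf, a lysosomal protease, stood at 21.4 and 28.4 CPM against 1.62 and 5.01 CPM (2.84 ± 0.51, adjusted p 0.000114). In each of these genes the libraries of the 2 classes did not overlap, but the lower class rests on 1 to 7 UMIs a library. They were also named for large fold changes with the same direction in both libraries, which favours such a gap. None of the 8 was called with cells thinned to 1500 UMIs, and neither was Lingo2 without the highest Scrublet scores nor Mctp1 with DESeq2.

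Of the excitatory neuron list, 14 of 24 genes were higher in members than in cycling Eomes-positive cells, none was lower, and 10 did not pass the test (median log2 fold change 0.45). At an unadjusted p under 0.05 it was 16 higher and 2 lower, and DESeq2 called 6 higher and 0 lower. Sox5, a factor of early-born neurons, stood at 540 and 510 CPM against 350 and 291 CPM (0.74 ± 0.09), and Rbfox3, a neuronal splicing factor, at 277 and 249 CPM against 153 and 153 CPM (0.79 ± 0.12). Unc5d, a netrin-family receptor known from this layer of the cortex, stood at 2294 and 2478 CPM against 1499 and 1391 CPM (0.74 ± 0.07). The adjusted p was 3.15e-07 for Sox5, 1.48e-05 for Rbfox3 and 6.27e-10 for Unc5d (edgeR).

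Of the proneural and neuronal bHLH list, 7 of 17 genes were higher in members than in cycling cells and 2 were lower (2 and 1 with DESeq2). Nhlh1, a bHLH factor of cells that have just left the cycle, stood at 18.7 and 13.3 CPM against 3.25 and 3.76 CPM (log2 fold change 2.16 ± 0.61, edgeR adjusted p 0.0139). Neurog2 and Gadd45g were higher by 0.51 ± 0.13 and 0.47 ± 0.11 (adjusted p 0.00474 and 0.00364), while Mfng and Sstr2, at 0.46 ± 0.16 and 0.43 ± 0.17, did not pass the test (adjusted p 0.0607 and 0.0900). DESeq2 called neither Nhlh1, Neurog2 nor Gadd45g, and Neurog2 was not called without the library block (log2 fold change 0.52). Nhlh1 was not called with 3 or more Eomes UMIs either, nor Gadd45g without members that held 6 further cycle genes.

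Of 22 radial glia genes, 3 were higher in members than in cycling cells and 2 lower, and Fabp7, the fatty acid binding protein of radial glia, was lower at 664 and 860 CPM against 1099 and 1606 CPM (log2 fold change -0.81 ± 0.08, edgeR adjusted p 2.36e-09). Of 20 Notch pathway genes 1 was higher and 1 lower, near the 7.18% and 7.68% over all genes. DESeq2 called 0 genes of the radial glia list higher and 2 lower. Of 16 cell cycle exit genes 3 were higher and 4 lower (0 and 4 with DESeq2). The lower ones include Cdkn2c and Cdkn2d, which encode inhibitors of cyclin-dependent kinases, at -3.25 ± 0.31 and -1.95 ± 0.17 (adjusted p 1.16e-09 and 2.28e-10). Of 11 DNA methylation genes, 4 were lower and none higher (0 at an unadjusted p under 0.05 and 0 with DESeq2, which called 3 lower).

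Against radial glia-type cells, 2736 of 13565 genes tested were called (20.2%), 1445 higher in members (10.7%) and 1291 lower (9.52%). With RLE size factors there were 1258 higher and 1423 lower, and with DESeq2 916 higher and 1204 lower, so which direction held more calls depended on the method. Most tested genes of the excitatory neuron and the delamination and migration lists were higher in members, and most of the radial glia list were lower. As radial glia-type cells were chosen on Slc1a3 and for lack of Neurod2 and Neurod6, genes that accompany those factors are given as a description. This class was small, with 240046 and 396393 UMIs in all, and it held 996 and 348 CPM of immediate early and stress genes against 139 and 94.5 CPM in members (3 of 8 tested lower in members). It also held 41.7 and 259.8 CPM of pericyte and fibroblast genes against 8.54 and 45.9 CPM in members (4 of 5 lower), and 599.9 and 1014 CPM of red blood cell genes against 572 and 1690 CPM (3 of 5 higher, although the sum was higher in members in library 2 only). The part of stress and of other cell types in the result was not tested.

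Of the radial glia list, 16 of 19 tested genes were lower in members, 1 was higher and 2 did not pass the test, with a median log2 fold change of -3.06. Tnc, an extracellular matrix protein of the progenitor zones, stood at 20.3 and 35.8 CPM against 1196 and 1155 CPM (-5.28 ± 0.14, edgeR adjusted p 5.46e-23). Hes5, the main effector of Notch signalling in radial glia, stood at 10.7 and 5.51 CPM against 199.96 and 146 CPM (-4.34 ± 0.32, adjusted p 3.16e-12). Aldoc, a glycolytic enzyme of glia, stood at 35.2 and 27.5 CPM against 596 and 580 CPM (-4.16 ± 0.16, adjusted p 6.07e-19).

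The 8 largest falls against radial glia-type cells were in Ano1, Fam167a, Pdzph1, Pld1, Fbln2, Ccn1, Fmo1 and Lhcgr, each at 0 to 2.75 CPM in members. Ano1, a chloride channel, had 0 and 0.918 CPM in members and 79.2 and 68.1 CPM in radial glia-type cells. Pld1, a phospholipase, had 1.60 and 0.918 CPM in members and 41.7 and 141 CPM in radial glia-type cells. These genes were near the floor in the members of both libraries.

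The 8 largest rises were Rab3c, Mfng, Ntng2, Scrt2, Synpr, Kcnj3, Tmem74 and Cdh12, each without a UMI in the radial glia-type cells of both libraries. Against a floor of 3 counts in that class they were at least 33.0-, 27.4-, 17.4-, 14.5-, 13.3-, 9.06-, 8.38- and 7.22-fold higher in members. Rab3c, a small GTPase of secretory vesicles, stood at 155 and 156 CPM in members, Scrt2, a repressor linked to the onset of radial migration, at 71.6 and 65.2 CPM, and Ntng2, a netrin-G adhesion protein, at 87.6 and 77.1 CPM. All were present in the members of both libraries.

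Of the excitatory neuron list, 18 of 22 genes were higher in members than in radial glia-type cells and none was lower (median log2 fold change 2.32). At an unadjusted p under 0.05, 1 was lower, and DESeq2 called 17 higher and 0 lower. Slc17a6, the vesicular glutamate transporter of young excitatory neurons, stood at 189 and 204 CPM against 0 and 2.52 CPM, a ratio of 125 (95% counting interval 22.4 to 4957) from 1 UMI in the lower class. Myt1l, a repressor of non-neuronal genes, stood at 425 and 354 CPM against 8.33 and 12.6 CPM (5.20 ± 0.24, edgeR adjusted p 5.08e-17). Of the delamination and migration list, 17 of 25 were higher and 4 lower (median 2.59). Rnd2, a small GTPase needed for radial migration, stood at 167 and 186 CPM against 16.7 and 10.1 CPM (3.88 ± 0.33, adjusted p 4.84e-11).

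Of the bHLH list, 10 of 15 genes were higher and 3 lower against radial glia-type cells, and of the Notch list 4 of 20 were higher and 8 lower. Neurod1, which acts downstream of Neurog2 and Eomes, stood at 176 and 150 CPM against 0 and 2.52 CPM, a ratio of 103 (18.5 to 4082) from 1 UMI. Neurod4 stood at 26.7 and 22.0 CPM in members and had no UMI in radial glia-type cells (at least 5.13-fold). The receptors Notch2 and Notch3 were lower in members, by -3.98 ± 0.21 and -3.58 ± 0.62 (log2, edgeR adjusted p 1.3e-15 and 3.88e-05).

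Against newborn neuron-type cells, 4648 of 13568 genes tested were called (34.3%), 2266 higher in members (16.7%) and 2382 lower (17.6%). In members 19 of 22 radial glia, 11 of 20 Notch and 8 of 16 cell cycle exit genes were higher, and 17 of 21 excitatory neuron genes were lower. Newborn neuron-type cells were chosen on Neurod2, Neurod6 and Unc5d, so here too the genes that accompany them are a description. Genes of red blood cells summed to 572 and 1690 CPM in members and 824 and 3815 CPM in newborn neuron-type cells, so they differed between libraries in both classes, and all 5 tested were lower in members. Immediate early and stress genes summed to 139 and 94.5 CPM in members against 85.2 and 76.7 CPM (4 of 8 higher), and endothelial genes to 11.2 and 18.8 against 62.3 and 33.0 CPM (2 of 5 lower). The part of these lists in the other results was not tested. With DESeq2, 2530 genes were called, 1320 higher and 1210 lower.

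Of the radial glia list, 19 of 22 genes were higher in members, 2 were lower and 1 did not pass the test (median log2 fold change 1.21 beside -0.05 over all genes). Pax6 stood at 156 and 159 CPM against 12.8 and 15.7 CPM (3.43 ± 0.12, edgeR adjusted p 2.69e-20), and Sox2 at 96.1 and 92.7 CPM against 7.42 and 9.49 CPM (3.44 ± 0.15, adjusted p 2.7e-18). Vim, an intermediate filament of progenitors, stood at 565 and 441 CPM against 50.1 and 58.2 CPM (3.17 ± 0.10, adjusted p 1.26e-21). Radial glia-type cells held 296 and 285 CPM of Sox2 and 2108 and 1847 CPM of Vim, so members lay between the other classes for both genes (against radial glia-type cells -1.53 ± 0.16 and -1.90 ± 0.10, adjusted p 3.45e-09 and 3.61e-16). For Pax6 no such order is given, since Pax6 was used to choose the radial glia-type cells.

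The 8 largest rises over newborn neuron-type cells were Neurod4, Cacng5, Tfap2c, Neurog2, Sox21, Agbl4, Btbd17 and Smoc1. Neurod4, a bHLH factor, was near 0 in newborn neuron-type cells, with 26.7 and 22.0 CPM in members, 25.96 and 16.3 in cycling Eomes-positive cells and 0.122 and 0.211 in newborn neuron-type cells. Tfap2c, an AP-2 transcription factor of basal progenitors, stood at 40.1 and 34.4 CPM in members against 0.609 and 1.37 CPM (5.11 ± 0.31, edgeR adjusted p 1.34e-14). Smoc1, a secreted modulator of BMP signalling, stood at 64.1 and 53.2 CPM against 2.92 and 2.53 CPM (4.38 ± 0.22, adjusted p 1.21e-16).

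Of the Notch list, 11 of 20 genes were higher in members than in newborn neuron-type cells and 1 was lower, with a median log2 fold change of 1.04. Notch1, a receptor, stood at 51.8 and 48.6 CPM against 2.68 and 3.69 CPM (3.92 ± 0.22, edgeR adjusted p 1.38e-15). Of the cell cycle exit list, 8 of 16 were higher and none lower (1 at an unadjusted p under 0.05, 0 with DESeq2). Btg2, an antiproliferative factor that marks neurogenic divisions, stood at 135 and 128 CPM against 10.8 and 12.7 CPM (3.44 ± 0.13, adjusted p 1.42e-19), and Ccnd2, a cyclin inherited by basal progenitors, at 320 and 326 CPM against 44.1 and 63.0 CPM (2.56 ± 0.11, adjusted p 2e-18).

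Of the excitatory neuron list, 17 of 21 genes were lower in members than in newborn neuron-type cells, 3 higher and 1 did not pass the test (median log2 fold change -1.02). Of the delamination and migration list, 16 of 24 were lower and 4 higher. Cntn2, an axonal adhesion protein, stood at 18.2 and 28.4 CPM against 220 and 242 CPM (-3.32 ± 0.13, edgeR adjusted p 1.87e-19). The 8 largest falls were Trnp1, Adamtsl3, Cacng2, Clstn2, Rspo3, Cdh12, Btbd11 and Jakmip1, among which Clstn2, a synaptic calsyntenin, stood at 63.0 and 75.7 CPM against 851 and 762 CPM.

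Cdh12, a cadherin, was thus among the largest rises against radial glia-type cells and the largest falls against newborn neuron-type cells. It stood at 0 and 0 CPM in radial glia-type cells, 33.1 and 34.9 in members and 405 and 335 in newborn neuron-type cells. Neurod4, Tfap2c and Mfng showed the other order, with their highest level in Eomes-positive cells.

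**Figure D4:**
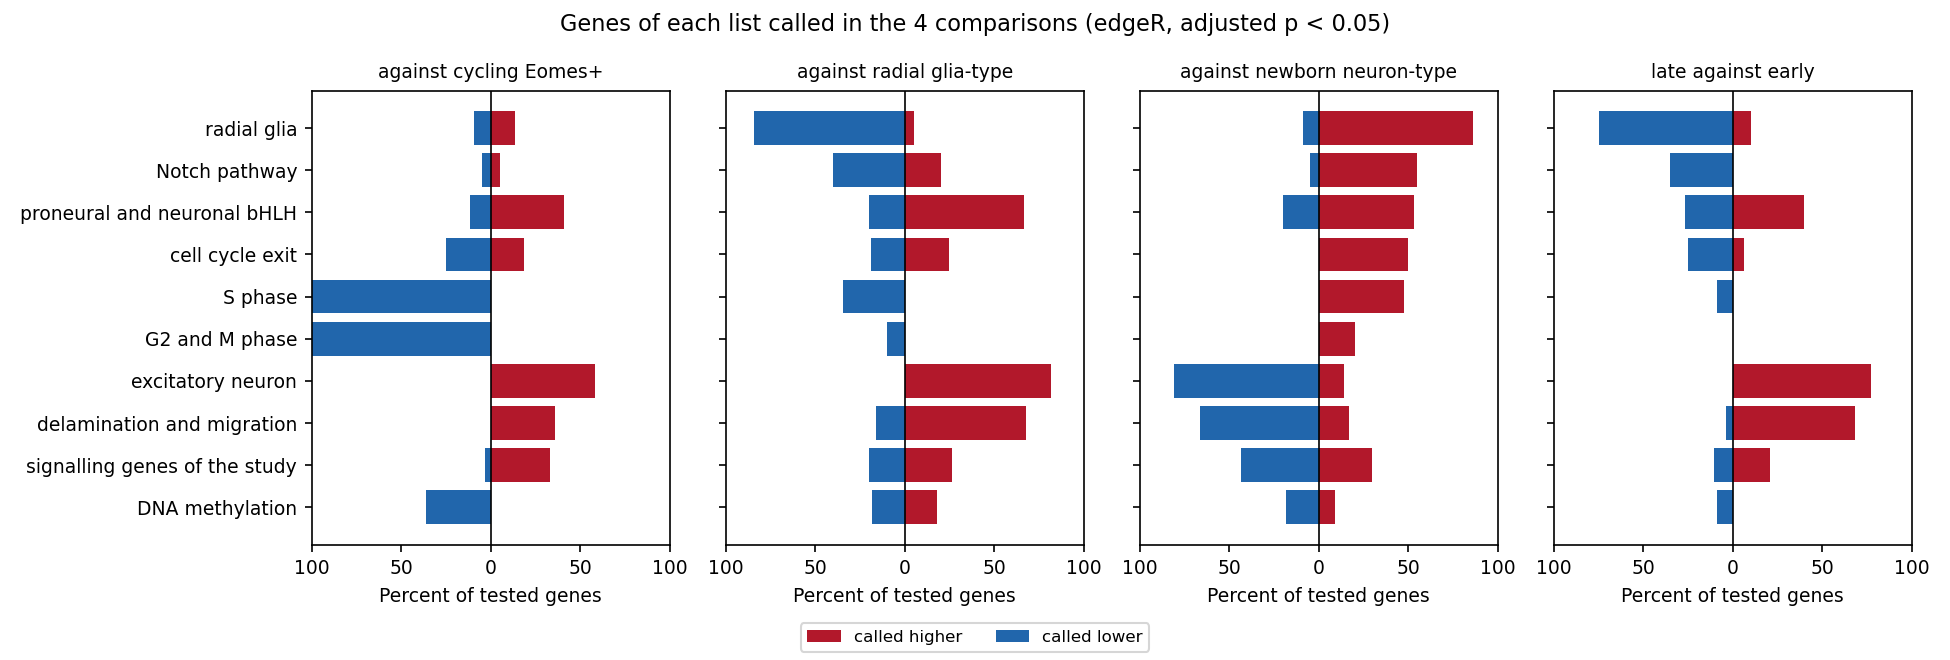
Percent of the tested genes of each list (x axes) called higher (red, to the right) or lower (blue, to the left) in the non-cycling Eomes-positive cells against each of the 3 other classes, and in late against early members. Against radial glia-type cells 16 of 19 radial glia genes were lower, and against newborn neuron-type cells 19 of 22 were higher.

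Members also varied among themselves. They were grouped by UMIs of Pax6 and Sox2 on one side and of Neurod2 and Neurod6 on the other, into early members (1 or more of the first, at most 1 of the second), intermediate members (1 or more of the first and 2 or more of the second), late members (none of the first and 2 or more of the second) and the rest. Early members were 42 and 69 cells, or 18.6% and 22.5% of the members. Intermediate members were 105 and 133 cells (46.5% and 43.3%), late members 68 and 90 cells (30.1% and 29.3%), and the rest 11 and 15 cells (4.87% and 4.89%), too few for the fit. These groups rest on few UMIs. A Neurod6 UMI was also found in 29.5% and 33.6% of the vascular and immune cells, a Neurod2 UMI in 16.1% and 18.5% and a Pax6 UMI in 2.68% and 7.58%, against 76.1% and 76.5%, 62.4% and 56.7%, and 57.1% and 55.7% of members. The median depth was 9003.5 and 6983 UMIs in early, 8711 and 7383 in intermediate, 7099.5 and 6939.5 in late and 4878 and 3295 UMIs in the remaining members, and these shares moved with depth: thinned to 1500 UMIs, 32.1% and 26.5% of members were early and 16.0% and 16.7% late.

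Between late and early members, 1439 of 13506 genes tested were called (10.7%), 790 higher in late members (5.85%) and 649 lower (4.81%). The names early and late are working names for the marker groups and not measured times. As the groups were defined by radial glial and neuronal factors, genes that accompany those factors are given as a description. Immediate early and stress genes summed to 264 and 148 CPM in early and 77.3 and 52.4 CPM in late members, and red blood cell genes to 566 and 4619 against 761 and 915 CPM, with 4 of 5 tested lower in late members. This came from library 2, as the sum of red blood cell genes was higher in late members in library 1. Microglial genes summed to 8.62 and 88.6 against 12.2 and 6.55 CPM (1 of 4 lower). Cajal-Retzius genes summed to 14.4 and 31.0 CPM in early and 65.1 and 75.3 CPM in late members, with 3 of 6 tested higher, and the part of these lists in the result was not tested.

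Gadd45g and Neurog2 were lower in late than in early members. Gadd45g stood at 857 and 631 CPM in early, 252 and 241 in intermediate, and 52.9 and 118 in late members (log2 fold change of late over early -3.00 ± 0.18, edgeR adjusted p 5.5e-22). Neurog2 stood at 814 and 828 CPM in early, 495 and 410 in intermediate and 138 and 178 in late members (-2.30 ± 0.16, adjusted p 3.22e-18). The stages did not overlap between libraries for either gene, and the late level was still above the 13.8 to 16.7 CPM of newborn neuron-type cells.

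Mfng and Sstr2 did not follow this course. Mfng stood at 132 and 108 CPM in early, 146 and 115 in intermediate and 153 and 116 in late members (0.22 ± 0.22, edgeR adjusted p 0.638). Sstr2 stood at 83.4 and 57.6 CPM in early, 116 and 116 in intermediate and 97.7 and 106 in late members (0.63 ± 0.25, adjusted p 0.108). The Mfng values of the 3 stages overlapped, and for Sstr2 the early values lay below the others without passing the test. Eomes, which chose all members, stood at 934 and 753 CPM in early, 735 and 632 in intermediate and 513 and 550 CPM in late members.

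Among bHLH genes the levels changed in both directions. Hes6, an inhibitor of Hes1, stood at 371 and 365 CPM in early, 289 and 199 in intermediate and 165 and 154 in late members. Neurod1 was higher in late members, from 37.4 and 26.6 CPM in early over 167 and 159 in intermediate to 297 and 232 CPM in late members (3.12 ± 0.24, edgeR adjusted p 1.5e-16), and stood at 106 and 107 CPM in newborn neuron-type cells. Neurod1 was thus highest in late members. In the whole list 6 of 15 genes were higher and 4 lower in late members.

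**Figure D5:**
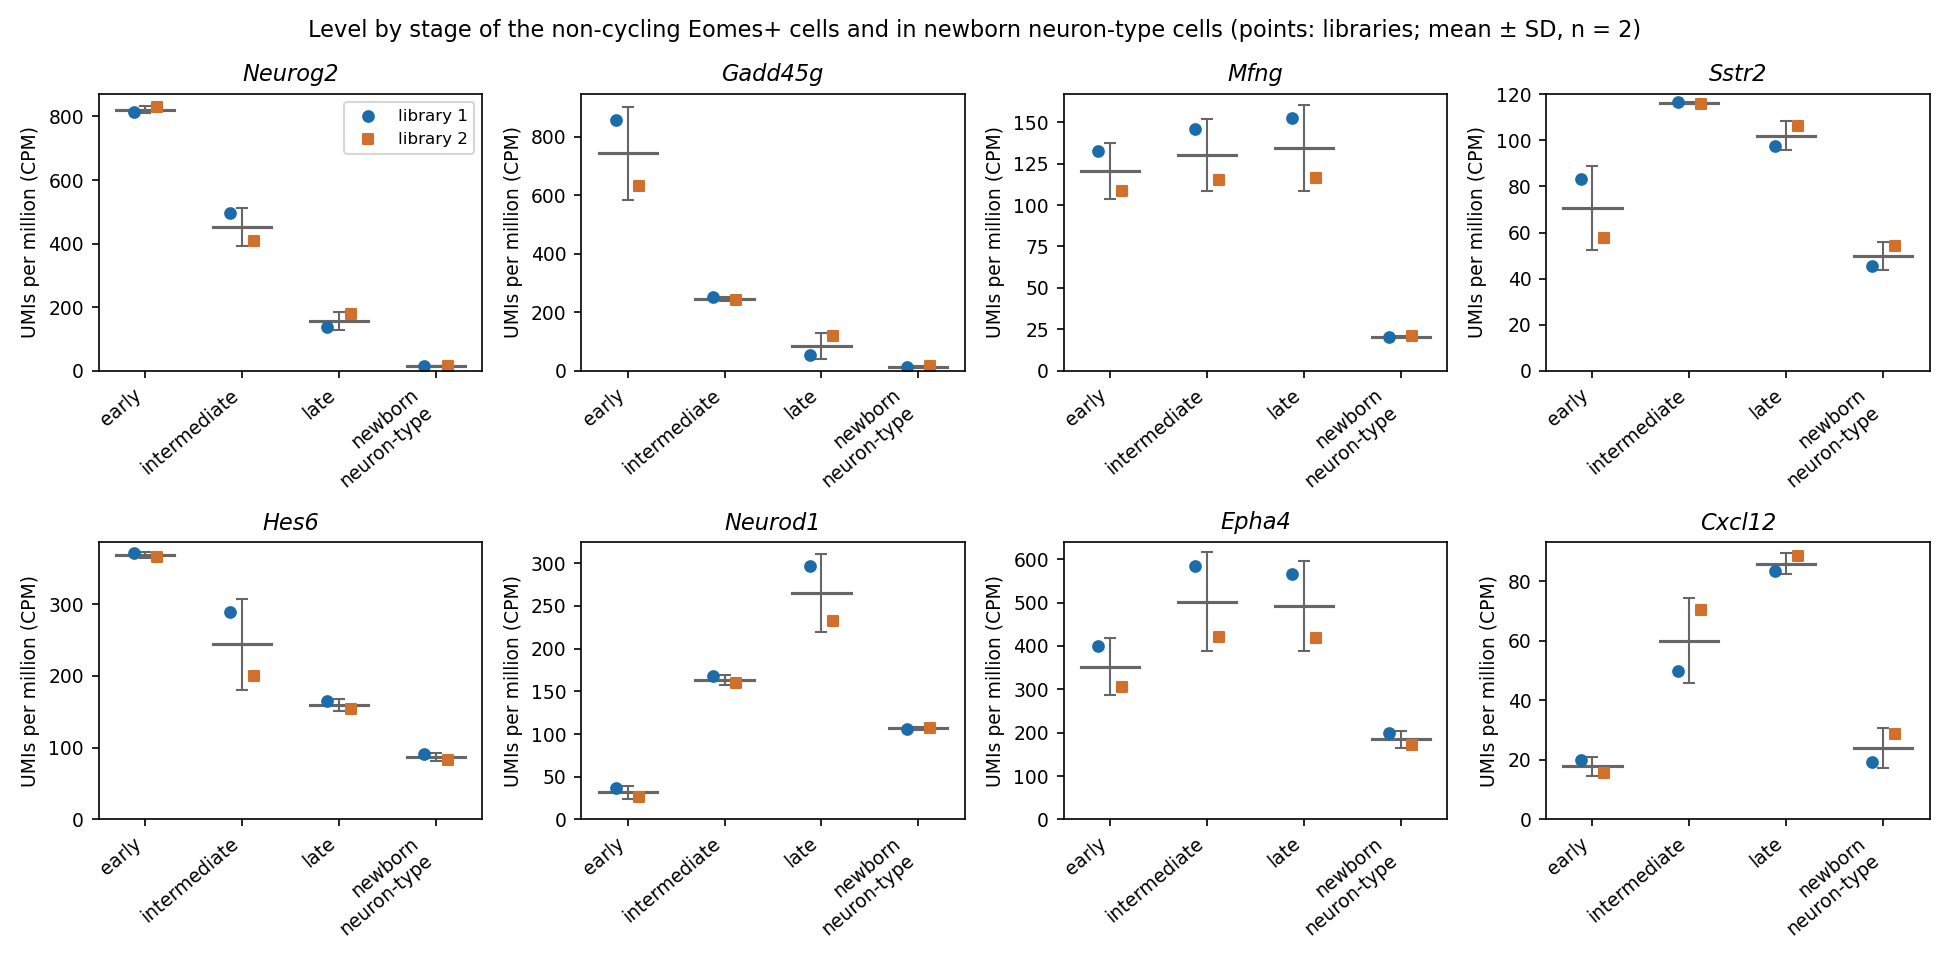
Level in CPM (y axes, each from 0) of 8 genes in early, intermediate and late non-cycling Eomes-positive cells and in newborn neuron-type cells (x axis), with library 1 as blue circles, library 2 as orange squares and the mean ± SD (n = 2) in grey. Neurog2 and Gadd45g step down in both libraries, Neurod1 and Cxcl12 are highest in late members (297 and 232 CPM, 83.4 and 88.4 CPM), and Mfng stays between 108 and 153 CPM over the 3 stages.

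Of 20 tested radial glia genes, 15 were lower in late members, 2 higher and 3 did not pass the test (median log2 fold change -2.00). Hes1, the Notch effector, stood at 20.1 and 42.1 CPM in early members and 2.04 and 0 CPM in late members, a ratio of 35.8 (95% counting interval 5.89 to 1470) from 1 UMI. Of 20 Notch genes, 7 were lower and none higher (1 at an unadjusted p under 0.05, 0 with DESeq2). They include Dll1, a ligand, at 37.4 and 44.3 CPM in early and 2.04 and 1.64 CPM in late members, and Notch1 at 126 and 90.8 against 16.3 and 26.2 CPM. Among the largest falls were those of Svil, Gas1, Htra1, Hes1, Tspan18, Rgcc and Aldoc. Gas1, a coreceptor for sonic hedgehog, stood at 124 and 146 CPM in early and 2.04 and 3.27 CPM in late members.

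Of 22 tested excitatory neuron genes, 17 were higher in late members and none lower (median log2 fold change 1.18; 1 lower at an unadjusted p under 0.05, 0 with DESeq2). Of 25 delamination and migration genes 17 were higher and 1 lower (median 1.60). Robo2, a receptor of the Slit guidance cues, stood at 207 and 354 CPM in early and 2520 and 1859 CPM in late members (2.98 ± 0.12, edgeR adjusted p 3.6e-29). Sema3c, a secreted guidance cue, stood at 31.6 and 28.8 against 344 and 224 CPM (3.27 ± 0.24, adjusted p 2.61e-17), and Plxna4, a semaphorin receptor, at 74.7 and 99.6 against 759 and 665 CPM (3.06 ± 0.15, adjusted p 2.01e-25). In each of these genes both late values lay above both early values, but they were named for the largest fold changes of their list, which favours such a gap.

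The 8 largest rises in late members were Chst9, Sez6l2, Nav2, Ly6g6e, Ndst3, Kcnh8, Chrnb2 and Hs3st5. Chst9, Ndst3 and Hs3st5 encode enzymes that add sulfate to sugar chains. Ndst3 stood at 83.4 and 85.1 CPM in late members and 5.75 and 2.21 CPM in early members, a ratio of 22.5 (95% counting interval 7.46 to 111) from 3 UMIs, and Hs3st5 at 116 and 103 against 5.75 and 6.64 CPM (4.17 ± 0.44, edgeR adjusted p 1.87e-11). Chst9 had no UMI in early members and was at least 12.8-fold higher in late members, at 61.1 and 37.6 CPM. Nav2, a microtubule-linked protein of migrating neurites, stood at 220 and 211 against 5.75 and 11.1 CPM.

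Of 23 S phase genes, 2 were lower in late than in early members and none was higher, beside 10.7% called in either direction over all genes. At an unadjusted p under 0.05, 5 were lower and 0 higher, and DESeq2 called 2 lower and 0 higher. Of 20 G2 and M phase genes none was called by edgeR, with 1 at an unadjusted p under 0.05 and 0 with DESeq2. After thinning, 19.0% and 21.7% of early, 15.2% and 15.04% of intermediate and 17.6% and 16.7% of late members held 2 or more S phase UMIs. Btg2, of the cell cycle exit list, stood at 236 and 201 CPM in early and 63.1 and 83.5 CPM in late members (-1.48 ± 0.21, adjusted p 8.57e-08).

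The study asked which ligands and receptors could link somatostatin-positive interneurons and cortical progenitors, so the genes of its ligand-receptor pairs were read out in the members. Epha4, an ephrin receptor, stood at 532 and 400 CPM in members, 415 and 313 in cycling Eomes-positive, 321 and 298 in radial glia-type and 199 and 171 in newborn neuron-type cells. The log2 fold changes were 0.37 ± 0.09, 0.64 ± 0.12 and 1.29 ± 0.08, all past the test (edgeR adjusted p 0.00473, 8.65e-05 and 6.6e-15), although the first was not called with DESeq2 or without the library block (0.38), the first and second not when thinned, and the values of members and cycling cells overlap between libraries. Members thus held the highest Epha4 level of the 4 classes within each library. Within the members Epha4 stood at 400 and 306 CPM in early, 583 and 421 in intermediate and 566 and 419 in late members (late over early 0.54 ± 0.13, adjusted p 0.00115, not called without the library block at 0.55).

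Efnb2, a ligand of this receptor, was present in the members too, at 101 and 123 CPM, near the 104 and 125 CPM of cycling and the 91.6 and 146 CPM of radial glia-type cells (edgeR adjusted p 0.951 and 0.854). Newborn neuron-type cells held more, 259 and 244 CPM (members lower, -1.19 ± 0.10, adjusted p 2.53e-11). Epha4 and Efnb2 thus lay in opposite orders in members and newborn neuron-type cells.

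Nlgn1, a postsynaptic adhesion protein that binds neurexins, stood at 736 and 753 CPM in members, above the 552 and 537 CPM of cycling cells (0.47 ± 0.08, edgeR adjusted p 8.13e-05) and below the 1262 and 1085 CPM of radial glia-type cells (-0.57 ± 0.08, adjusted p 4.06e-06). Against the 824 and 877 CPM of newborn neuron-type cells it was lower by 0.22 ± 0.07 on the log2 scale (adjusted p 0.0151), a call lost with DESeq2, without the library block (-0.22), when thinned and without members that held 6 further cycle genes. Nrxn3, a neurexin, stood at 182 and 183 CPM in members and 69.7 and 49.99 CPM in newborn neuron-type cells (1.60 ± 0.10, adjusted p 4.79e-14). Cycling cells held 188 and 150 CPM and radial glia-type cells 208 and 182 CPM of Nrxn3, and neither difference from members passed the test (0.14 ± 0.13 and -0.02 ± 0.16, adjusted p 0.566 and 0.965). It was higher in early members, at 313 and 270 CPM, than in late ones, at 61.1 and 113 CPM (-1.63 ± 0.20, adjusted p 1.71e-09).

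Cxcl12, the chemokine that attracts Cxcr4-bearing interneurons and is known from the subventricular zone, was higher in members than in each other class. It stood at 51.3 and 62.9 CPM in members, 21.1 and 23.8 in cycling, 0 and 32.8 in radial glia-type and 19.4 and 28.7 in newborn neuron-type cells. The log2 fold changes were 1.38 ± 0.30, 1.62 ± 0.41 and 1.22 ± 0.17 (edgeR adjusted p 0.00118, 0.00391 and 1.02e-06), the first not called with DESeq2 and the first and second not when thinned. Within the members it went from 20.1 and 15.5 CPM in early over 49.9 and 70.2 in intermediate to 83.4 and 88.4 CPM in late members (2.36 ± 0.39, adjusted p 4.76e-06, not called when thinned). Cxcl12 was thus highest in late members in both libraries.

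Of the whole list of 34 signalling genes, 10 of 30 tested were higher and 1 lower in members than in cycling cells, 8 higher and 6 lower than in radial glia-type cells, and 9 higher and 13 lower than in newborn neuron-type cells. Over all genes, 7.18% were higher and 7.68% lower in the first pair, 10.7% and 9.52% in the second and 16.7% and 17.6% in the third. Between late and early members, 6 of 29 were higher and 3 lower, beside 5.85% and 4.81% over all genes. Epha3, a further ephrin receptor, stood at 1281 and 1160 CPM in members against 208 and 95.9 CPM in radial glia-type cells (3.18 ± 0.14, edgeR adjusted p 1.09e-17). Dnmt1, the maintenance DNA methyltransferase, stood at 33.6 and 37.2 CPM in members and 105 and 125 CPM in cycling cells (-1.69 ± 0.19, adjusted p 2.8e-08). Against newborn neuron-type cells, at 44.8 and 46.3 CPM, it differed by -0.39 ± 0.15 (adjusted p 0.0487), a call lost with DESeq2, without the library block (-0.39), without the highest Scrublet scores and when thinned.

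Markers of other cells were checked in the members. Tbx21 and Cdhr1, which mark mitral cells of the olfactory bulb, had no UMI, and the list with Lhx1 and Lhx5 summed to 3.20 and 0 CPM. The 9 Cajal-Retzius genes summed to 74.8 and 48.6 CPM, against 30.8 and 31.3 CPM in cycling, 33.3 and 45.4 CPM in radial glia-type and 57.9 and 41.7 CPM in newborn neuron-type cells. Of 6 tested, 2 were higher in members than in cycling cells, 2 higher and 1 lower than in radial glia-type cells, and 1 higher and 1 lower than in newborn neuron-type cells. Over all genes, 7.18% were higher in the first pair, 10.7% higher and 9.52% lower in the second, and 16.7% and 17.6% in the third. The 11 members of library 1 outside the early, intermediate and late groups held 738 CPM of this list, against 14.4 to 65.1 CPM in those groups, while the 15 of library 2 held 47.7 CPM. The same 11 cells held all UMIs of the mitral list, at 83.6 CPM. These were UMIs of Lhx1 and Lhx5, which are in both lists, so they are also part of the 738 CPM. The part of these cells in the results was not tested. GABAergic genes summed to 32.6 and 43.6 CPM, endothelial genes to 11.2 and 18.8 CPM and microglial genes to 11.2 and 28.0 CPM. Oligodendrocyte lineage genes summed to 5.87 and 6.88 CPM and pericyte and fibroblast genes to 8.54 and 45.9 CPM. Of the members, 10 and 24 were among the 432 and 1111 highest Scrublet doublet scores, a share of 4.42% and 7.82% against 7.24% and 10.8% of all kept cells. The cycling class lost a larger part, falling from 47 and 77 to 33 and 57 cells without these scores.

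The labels do not say which areas of the cortex were taken, so genes of the hippocampal and dentate lineage were read as well. Of 4 tested, 3 were higher in members than in cycling, 1 than in radial glia-type and 3 than in newborn neuron-type cells. None was lower (1 in the second pair at an unadjusted p under 0.05, 0 with DESeq2, which called 2, 0 and 2 higher). Over all genes, 7.18%, 10.7% and 16.7% were higher. In late against early members 0 were higher and 1 lower. Prox1, a factor of dentate granule cells, stood at 25.6 and 28.0 CPM in members and 2.80 and 1.58 CPM in newborn neuron-type cells (3.59 ± 0.32, edgeR adjusted p 8.81e-11). It stood at 4.87 and 7.51 CPM in cycling cells (members higher, 2.08 ± 0.47, adjusted p 0.00189, not called when thinned). Radial glia-type cells held 25.0 and 20.2 CPM of it, a difference from members that did not pass the test (0.35 ± 0.45, adjusted p 0.669). Zbtb20, a factor of hippocampal and upper-layer neurons and of progenitors, stood at 1847 and 1634 CPM against 548 and 534 CPM in newborn neuron-type cells (1.66 ± 0.07, adjusted p 1.71e-18), and in radial glia-type cells it reached 2425 and 1829 CPM. Cycling cells held 1605 and 1439 CPM of Zbtb20 (members higher, 0.21 ± 0.07, edgeR adjusted p 0.0488), a call kept in 1 of 10 alternatives.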

How the data were processed

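The authors deposited, for each of 2 libraries, a matrix of UMI counts over 32285 genes. Per the submitters' processing notes it was made with Cell Ranger 7.0.0 and mm10, while the matrix headers name version 7.1.0. Counts were used as deposited. Cells had 1500 to 60000 UMIs and under 10% mitochondrial UMIs. The members and the gene lists were chosen with earlier results of these data known. Doublets were not removed; leaving out the highest Scrublet scores (0.8% per 1000 barcodes) is an alternative.

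Counts were summed per library and class and fitted with edgeR 4.0.16 (R 4.3.3, TMM, a minimum of 10 counts in 2 or more sums, blocking on library), with Benjamini-Hochberg adjustment over all genes tested and a call at 0.05. Each main fit held further classes beside the compared pair, and all of them shared in the estimate of spread. A gene without a UMI in a class was given a floor of 3 counts there. The same-numbered classes come from the same library, which is where the pairing comes from. Named genes were the 5 markers, the 8 largest called fold changes in each direction per comparison (at least 20 CPM in both libraries of the higher class, leaving out rule, mitochondrial, ribosomal, sex-linked and unnamed genes), up to 4 genes with the largest fold change of each list, and Epha4, Efnb2, Nlgn1, Nrxn3, Dnmt1 and Cxcl12. Hes6 by stage was chosen after its values were seen. Some genes that this rule names are not reported here. Thinning drew 1500 UMIs per cell. DESeq2 1.42.0 and other alternatives are given in the closing section.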

Additional observations from a re-analysis of the deposited data

Results flagged for a closer look

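Barcodes outside the depth and mitochondrial limits were not used in the comparisons, yet 14 of them in library 1 and 9 in library 2 met every other part of the rule, with 2 or more Eomes UMIs and none of the 5 interneuron and Cajal-Retzius genes or the 3 cycle genes. Among kept cells with 2 or more Eomes UMIs, 85 in library 1 and 118 in library 2 also held a UMI of Gad1, Gad2, Dlx1 or Dlx2 and were left out of the members. They are named here because they carry the Eomes signal in cells that the comparisons did not use.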

How the results depend on the processing

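The number of called genes moved by over 1.5 times in these cases. With cells thinned to 1500 UMIs, which leaves fewer counts, it fell from 2016 to 279 against cycling cells, from 2736 to 742 against radial glia-type cells, from 4648 to 2002 against newborn neuron-type cells and from 1439 to 278 between late and early members. With DESeq2 it was 1187 against cycling and 2530 against newborn neuron-type cells; the cause was not tested. It moved by less than that without the library block, to 1734, 2588, 4449 and 1223. Of 254 results on named genes, dropping the block lost 11 calls and gained 1, and left the call of the other 242 as it was. Thinning gave a value for 180 of these results and lost 51 calls, while DESeq2 lost 24, 3 or more Eomes UMIs 11, leaving out 6 further cycle genes 9 and removing the highest Scrublet scores 7. Leaving out members with a UMI of 6 further cycle genes, Ccna2 and Uhrf1 among them, was chosen after seeing the data and gave 2074, 2868, 4141 and 1026.

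The share of members among kept cells was 3.39%, 1.32% when thinned and 2.59% with 3 or more Eomes UMIs, and 2.996% to 3.79% leaving out 1 library. The share with S phase UMIs was 73.2%, 21.1% in the members chosen anew after thinning (81 and 132 cells, unlike the report's thinned share of all members), 76.0% with 3 or more Eomes UMIs and 71.7% to 74.8% in single libraries. Early members were 20.5%, 29.3% when thinned and 18.6% to 22.5% in single libraries. Late members were 29.7%, 16.4% when thinned, 25.5% with 3 or more Eomes UMIs and 29.3% to 30.1% in single libraries.

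Log2 fold changes that changed sign were mostly near 0 or from few counts. Against cycling cells, they were Nes at 0.56 and Rbl1 at 0.22 when thinned, Hes1 at -0.24 and Efnb2 at 0.048 without the highest Scrublet scores, and Lef1 at 0.49 with DESeq2 and 0.068 without further cycle genes. Against radial glia-type cells, they were Lef1 at 0.094 with DESeq2, Efnb2 at 0.0066 and Nrxn3 at 0.061 with no count filter, and Nrxn3 at 0.0019 without the highest Scrublet scores, 0.12 with 3 or more Eomes UMIs, 0.16 with 3000 UMIs at least and 0.011 without further cycle genes. Against newborn neuron-type cells, Mcm3 was at -0.53 and Uhrf1 at -5.61 without further cycle genes. Between late and early members, Sstr2 was at -0.21 and Dnmt1 at -0.20 when thinned, Nr2f2 at 0.14 without the highest Scrublet scores, and Mfng at -0.021, Uhrf1 at 0.0096 and Ccna2 at 0.018 without further cycle genes. The sign changes of Uhrf1 and Ccna2 follow from how that alternative was built, since it removes every member with a UMI of either gene.

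In single libraries, values with no test, none of the 198 called results on these genes changed sign and 15 of the 56 not called did. Genes named for the largest fold changes had to have the same direction in both libraries, so for them this was fixed in advance. A value moved by over 1 SD in 72 of the 254 without library 1 and in 97 without library 2. Among genes of other cell types and stress, given as sums in the report, 6 of 40 called results changed sign in a single library. Limiting members to at most 1 UMI over the S, G2 and M phase lists was not run, as 11 and 17 cells were left. Precision is limited by the 2 libraries and by the small radial glia-type class.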
